A study of Homo sapiens with 6 samples.

Results

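Integrins that recognise the tripeptide Arg-Gly-Asp (RGD) were followed in T24 cells with and without TGF-β1. The genes were chosen by name: the alpha chains ITGAV, ITGA5 and ITGA8, and the beta chains ITGB1, ITGB3, ITGB5, ITGB6 and ITGB8, 8 of the 58735 genes in the deposited table. The rule of choice used no measured value, but earlier results of these data were known when it was made. T24 is an established human cell line of bladder urothelial carcinoma, labelled wild type. In 3 libraries the cells had been given 10 ng/ml TGF-β1 for 48 h (named TGF-b1 1, 2 and 3), and 3 libraries came from cells not given it (control 1, 2 and 3). All cells were kept in medium with 10% serum, which itself carries fibronectin, vitronectin and latent TGF-β. The labels do not state that replicates came from separate cultures. Every p-value below therefore reflects the spread among these libraries alone, and that spread may be technical.

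An integrin is a heterodimer of an alpha and a beta chain that spans the membrane and ties the extracellular matrix to the actin cytoskeleton. The alpha-v chain, encoded by ITGAV, pairs with each of the 5 beta chains studied here, while alpha5 and alpha8 pair only with beta1. These receptors bind fibronectin, vitronectin and related proteins at their RGD sites. Alpha-v beta6 and alpha-v beta8 also bind the RGD site in the latency peptide of TGF-β1 and thereby release the active cytokine.

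The beta chains differ in their short cytoplasmic tails, where talin, the main integrin activator, binds an NPxY motif (Asn-Pro-any-Tyr) and kindlin an NPxY or NxxY motif closer to the end. The last 150 coding bases of the principal GENCODE transcript of each beta gene, stop codon included, are given to show how the tails differ, with the codons of NPxY in capitals.
ITGB1: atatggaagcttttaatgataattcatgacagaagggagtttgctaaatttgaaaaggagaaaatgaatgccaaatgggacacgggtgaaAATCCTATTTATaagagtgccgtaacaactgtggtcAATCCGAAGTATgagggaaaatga
ITGB3: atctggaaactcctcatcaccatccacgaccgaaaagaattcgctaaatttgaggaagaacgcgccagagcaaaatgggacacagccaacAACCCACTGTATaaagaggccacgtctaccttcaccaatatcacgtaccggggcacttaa
ITGB5: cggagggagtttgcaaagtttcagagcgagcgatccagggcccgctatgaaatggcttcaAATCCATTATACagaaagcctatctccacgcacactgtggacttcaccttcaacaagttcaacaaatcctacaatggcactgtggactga
ITGB6: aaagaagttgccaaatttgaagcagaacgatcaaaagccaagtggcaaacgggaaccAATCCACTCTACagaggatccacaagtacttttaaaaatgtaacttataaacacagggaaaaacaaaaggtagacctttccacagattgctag
ITGB8: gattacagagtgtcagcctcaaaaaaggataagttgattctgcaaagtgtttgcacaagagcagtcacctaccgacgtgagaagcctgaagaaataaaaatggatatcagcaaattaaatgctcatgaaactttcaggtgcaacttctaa
ITGB1 held 2 NPxY motifs in this stretch, and ITGB3, ITGB5 and ITGB6 held 1 each. Counting every NxxY, NPxY included, there were 2 in ITGB1, ITGB3, ITGB5 and ITGB6. ITGB8 held 0 of either kind in the same window.

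The libraries held 53591796 to 60200816 reads, of which 93.5 to 95.5% mapped, and 20703945 to 23678772 fragments on genes with a unique name. The deposited unit is FPKM, fragments per kilobase of gene length and library size. Levels can be compared between genes only roughly, because the length counts all annotated exons, whichever transcript is expressed. Genes that respond directly to TGF-β were higher in the treated libraries: PMEPA1 averaged 68.4 ± 6.12 FPKM in TGF-b1 libraries and 14.1 ± 1.51 FPKM in control libraries (SD, n = 3 each), and SMAD7 6.39 ± 0.932 and 2.35 ± 0.30 FPKM. The keratins KRT8 and KRT18, of simple epithelia, were high in both groups. KRT5, KRT13, KRT19 and UPK3A were at 0 in every library, and CDH1 averaged 0.0327 FPKM in TGF-b1 and 0.0286 FPKM in control libraries. EPCAM averaged 0.227 and 0.221 FPKM, GATA3 0.0208 and 0.0471 FPKM, and KRT7 10.0 and 14.7 FPKM, in the same order. Among the other uroplakins, UPK1A averaged 0.738 and 1.25 FPKM, UPK1B 1.24 and 1.81 FPKM, and UPK2 0.0787 and 0.147 FPKM. KRT20 averaged 0 and 0.00781 FPKM, and TP63 0.00746 and 0 FPKM. The urothelial name comes from the cell line, and these markers bear it out only in part. The mesenchymal markers VIM, at 141 and 130 FPKM, and CDH2, at 9.39 and 4.96 FPKM, were present in both groups (adjusted p = 0.59 and 0.0031 in limma). The 6 fibroblast markers, which would show cells of another type, summed to 0.049 to 0.182 FPKM in TGF-b1 libraries and 0.068 to 0.188 FPKM in control libraries. Control 3 stood apart from the other controls: over the tested genes with the lowest GC content (42.9% or less) its median log2 difference from them was 0.18, and over those with the highest (56.7% or more) it was -0.28. In bulk RNA, a change in the level per cell and a change in the mix of cells cannot be told apart.

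ITGAV was the only member whose rise with TGF-β1 passed the main test. It was at 127, 122 and 124 FPKM in TGF-b1 1, 2 and 3, against 59.6, 58.7 and 72.9 FPKM in control 1, 2 and 3. Every TGF-b1 library was above every control library, and control 3 was the highest of the controls. The mean was 124 ± 2.76 FPKM in TGF-b1 libraries and 63.7 ± 7.93 in control libraries (SD, n = 3 each), a ratio of 1.95, or 2.10 without control 3. On the log2(FPKM + 1) scale the change was 0.96 (SE 0.11), with an adjusted p of 0.0011 in limma's moderated test over 11363 genes, those that reached 1 FPKM in 3 or more libraries. Only 29 of those genes, ITGAV included, had a change as large in that direction, where 90% of genes lay between -0.44 and 0.32. That count is on a scale that understates the change of low genes. These values rest on 22358 to 24164 fragments in TGF-b1 libraries and 10914 to 13832 in control libraries.

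Of the 8 members 6 reached the level needed for the test, and 1 of these passed an adjusted p of 0.05, as did 2.44% of all genes tested, 1.14% higher and 1.29% lower. Of the 8 members 4 (ITGAV, ITGB1, ITGB3 and ITGB5) had every TGF-b1 library above every control library, as did 14.6% of all genes tested. ITGAV passed under 16 of 17 other settings, including the omission of any one library (adjusted p 0.0011 to 0.0057). With no filter on low genes, where 28285 genes shared the correction and 0.053% passed, its change was the same and its adjusted p was 0.062. Without control 3 the count of members past the threshold was 3, namely ITGAV, ITGB1 and ITGB5, all higher, in a setting where 29.6% of all genes passed. It was also 3 with every library scaled to the same sum (the same genes, with 3.16% of all genes), 2 by voom on recovered fragments (ITGAV and ITGB1, with 9.2% of all genes), and 1, ITGAV, with the replicate number as a block (6.75% of all genes).

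**Figure D1:**
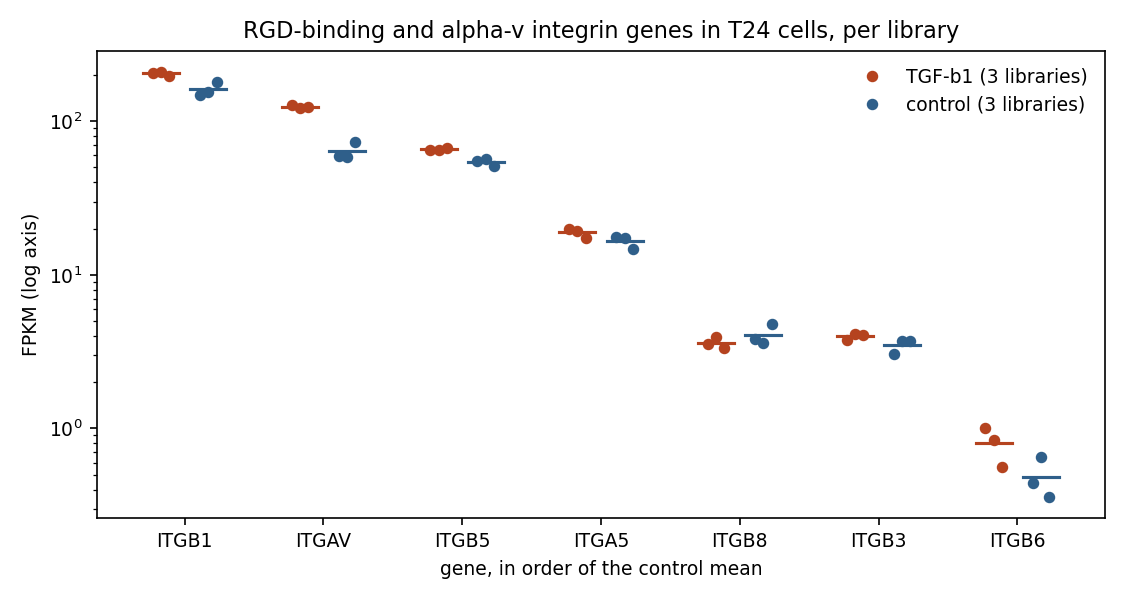
FPKM of each gene in each library on a log axis (points), with the group mean (lines), for TGF-b1 and control libraries (3 each), in order of the control mean. ITGAV is the gene whose groups are farthest apart, at 122 to 127 FPKM in TGF-b1 and 58.7 to 72.9 FPKM in control libraries; ITGA8, at 0 in every library, is not drawn.

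ITGAV lies on chromosome 2 at 186590065 to 186680901 on the plus strand of GRCh38 (ENSG00000138448.11), with 8211 bp of exons. An antisense gene that overlaps its 3′ part, AC017101.1, held 1 to 4 fragments in TGF-b1 libraries and 0 to 5 in control libraries. By level, ITGAV was the gene ranked 283 from the top in the mean of the TGF-b1 libraries and 698 in that of the control libraries. In the sequences below, matches to CAGAC, the SMAD box, and to TGANTCA, the AP-1 element, are in capitals. The 250 bases before the first RefSeq start of ITGAV (GRCh38.p14, chr2:186589806-186590055, plus strand) are shown because this member passed the main test. The same window of ITGA5 (chr12:54419267-54419516, minus strand) and of the first start of ITGB1 (chr10:32958231-32958480, minus strand), which encode the other fibronectin receptor, is set beside it.
ITGAV: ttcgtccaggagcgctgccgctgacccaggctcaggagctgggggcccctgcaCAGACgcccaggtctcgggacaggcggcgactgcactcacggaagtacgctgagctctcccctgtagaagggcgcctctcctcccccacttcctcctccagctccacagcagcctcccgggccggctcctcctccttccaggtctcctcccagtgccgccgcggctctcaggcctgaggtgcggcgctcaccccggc
ITGA5: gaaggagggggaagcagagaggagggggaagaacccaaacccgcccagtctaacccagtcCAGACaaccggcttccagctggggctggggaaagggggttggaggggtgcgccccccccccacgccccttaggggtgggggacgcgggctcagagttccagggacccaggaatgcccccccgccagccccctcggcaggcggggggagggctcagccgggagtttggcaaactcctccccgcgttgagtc
ITGB1: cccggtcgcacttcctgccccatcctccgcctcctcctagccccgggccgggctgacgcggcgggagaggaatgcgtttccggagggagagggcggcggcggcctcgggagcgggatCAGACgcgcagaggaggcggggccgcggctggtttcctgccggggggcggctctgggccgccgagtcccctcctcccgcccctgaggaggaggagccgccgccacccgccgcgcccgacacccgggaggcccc
Each of these windows held 1 CAGAC, on either strand, a match found in 38.0% of all 35116 RefSeq windows of this length, and 0 TGANTCA, found in 6.57%. GGCGC, the core of a GC-rich SMAD element, also counted on both strands, had 3 matches in the ITGAV window, which merge to 2 where they overlap, and 1 each in those of ITGA5 and ITGB1, and in 44.5% of all windows at least once. The window of ITGB8, which did not rise, held 1 CAGAC and 2 GGCGC. That of the second ITGAV start held 0 of both. Of the 8 members 7 had an entry in the promoter table, with 11 windows in all. A match describes letters only.

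The alpha5 chain, encoded by ITGA5 on chromosome 12 (54395261 to 54419460), forms the fibronectin receptor alpha5 beta1. ITGA5 was at 19.99, 19.4 and 17.5 FPKM in TGF-b1 1, 2 and 3, against 17.6, 17.4 and 14.8 FPKM in control 1, 2 and 3. The groups overlapped, with TGF-b1 3 below control 1. The means were 18.9 ± 1.32 and 16.6 ± 1.59 FPKM in TGF-b1 and control libraries (SD, n = 3 each), a log2 change of 0.18 (SE 0.10, adjusted p = 0.27 in limma). It passed in 0 of 17 other settings, and its adjusted p was lowest, 0.060, with the trend in GC content and length removed.

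The ratio of ITGAV to ITGA5 was therefore compared within each library. Its log2 was 2.67, 2.65 and 2.83 in TGF-b1 1, 2 and 3, against 1.76, 1.76 and 2.30 in control 1, 2 and 3. The groups did not overlap, and the mean difference of 0.78 corresponds to a 1.71-fold larger ratio in the TGF-b1 libraries. An exact permutation test, two-sided, gave p = 0.1, the smallest that 3 against 3 can give. Leaving out 1 library at a time moved the difference between 0.69 and 0.96. This ratio is of FPKM without a GC correction, and the transcripts of ITGAV and ITGA5 have 39.0 and 56.2% GC. With the GC and length trend removed, the log2 changes of ITGAV and ITGA5 were 0.78 and 0.25, which lie closer together.

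ITGA8, whose product pairs with beta1 and binds nephronectin in the developing kidney of mice, had 0 fragments in all 6 libraries. A count of 0 allows up to 3 fragments per library, which for this gene is 0.0166 to 0.0186 FPKM, for counting error only. Its ligand gene NPNT, in contrast, was at 73.4 ± 1.74 FPKM in TGF-b1 libraries and 68.3 ± 4.84 FPKM in control libraries (SD, n = 3 each, adjusted p = 0.49).

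Among the beta chains, ITGB1 on chromosome 10 (32900319 to 33005792), the common partner of 12 alpha chains, was the most abundant member in every library. It was at 206, 209 and 198 FPKM in TGF-b1 1, 2 and 3, against 149, 156 and 179 FPKM in control 1, 2 and 3. The TGF-b1 libraries were all above the control libraries, but control 3 lay nearer to them than to control 1. The means were 204 ± 5.57 and 161 ± 15.9 FPKM in TGF-b1 and control libraries (SD, n = 3 each), a ratio of 1.27 and a log2 change of 0.34 (SE 0.11, adjusted p = 0.10), which did not pass. It passed when each library was scaled to the same sum (0.048), by voom on the recovered fragments (0.035) and without control 3 (0.011). The setting with the GC and length trend removed gave a log2 change of 0.19 (adjusted p = 0.13).

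ITGB5, on chromosome 3 (124761948 to 124901418), encodes the beta chain of the vitronectin receptor alpha-v beta5. It was at 64.5, 64.7 and 67.4 FPKM in TGF-b1 1, 2 and 3, against 55.1, 56.7 and 50.9 FPKM in control 1, 2 and 3. The groups did not overlap, and here control 3 was the lowest library. The means were 65.5 ± 1.61 and 54.2 ± 3.03 FPKM in TGF-b1 and control libraries (SD, n = 3 each), a ratio of 1.21 and a log2 change of 0.27 (SE 0.09, adjusted p = 0.12), which did not pass. With the GC and length trend removed it did, at a log2 change of 0.33 (adjusted p = 0.015), as it did at equal sums (0.041) and without control 3 (0.047).

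The remaining beta chains were low. ITGB3, on chromosome 17 (47253846 to 47311816), encodes the beta chain shared by the vitronectin receptor alpha-v beta3 and the platelet fibrinogen receptor. It was at 3.78, 4.15 and 4.07 FPKM in TGF-b1 1, 2 and 3, against 3.06, 3.70 and 3.72 FPKM in control 1, 2 and 3. The groups were separate by a narrow margin, and the log2 change of 0.16 (SE 0.098, adjusted p = 0.32) did not pass in the main or any of 16 other settings. The annotated gene AC068234.1 overlaps ITGB3 on the same strand and held 0 fragments, so fragments that the counting could not assign between them may be missing from the level of ITGB3.

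ITGB8, on chromosome 7 (20330702 to 20415754), encodes the beta chain whose tail lacks the NPxY codons above. It was at 3.54, 3.91 and 3.34 FPKM in TGF-b1 1, 2 and 3, against 3.82, 3.61 and 4.79 FPKM in control 1, 2 and 3. The groups overlapped, and the one library that stood out was control 3, on the high side. The means were 3.60 ± 0.29 and 4.08 ± 0.628 FPKM in TGF-b1 and control libraries (SD, n = 3 each), a log2 change of -0.14 (SE 0.11, adjusted p = 0.43). With the GC and length trend removed the change was -0.32 (adjusted p = 0.037), and without control 3 it was -0.039 (adjusted p = 0.75).

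ITGB6, on chromosome 2 (160099666 to 160200313), encodes the epithelial beta chain that activates TGF-β with alpha-v. It was at 1.01, 0.845 and 0.557 FPKM in TGF-b1 1, 2 and 3, against 0.438, 0.651 and 0.36 FPKM in control 1, 2 and 3. This is 258 fragments in all TGF-b1 libraries and 154 in all control libraries, and the groups overlapped at TGF-b1 3 and control 2. The gene did not reach the level needed for the main test over all genes, and with no filter it did not pass. Its group means had a ratio of 1.66, and the exact two-sided permutation test of the FPKM gave p = 0.2.

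The order of the levels was ITGB1, ITGAV, ITGB5, ITGA5, then ITGB3 and ITGB8, then ITGB6 and ITGA8, by the mean of the TGF-b1 libraries. ITGB3 and ITGB8 did not differ beyond their spread, at 3.78 to 4.15 and 3.34 to 3.91 FPKM in TGF-b1 libraries and 3.06 to 3.72 and 3.61 to 4.79 FPKM in control libraries, and their order was the other way round in the control means. In every library ITGAV was above ITGB5, by a log2 ratio of 0.88 to 0.98 in TGF-b1 libraries and of 0.050 to 0.52 in control libraries.

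Control 3 differed from the other controls in both directions, depending on the member. It stood at 1.23 times the mean of control 1 and control 2 for ITGAV, 1.18 for ITGB1 and 1.29 for ITGB8, whose transcripts have 39.0 to 41.1% GC. It stood at 0.844 for ITGA5 and 0.91 for ITGB5, with 56.2 and 54.6% GC, and at 1.10 for ITGB3, with 51.5%. ITGB6, with 41.8% GC and 39 to 69 fragments per control library, was at 0.661. With the GC and length trend removed, ITGAV kept a log2 change of 0.78 (SE 0.058, adjusted p = 0.00028), and the members past the threshold were ITGAV and ITGB5, higher, and ITGB8, lower, where 4.43% of all genes passed. With the replicate block added to that setting the members were ITGAV and ITGB5 (4.28% of all genes). The part of GC content in the differences of single members was otherwise not tested.

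**Figure D2:**
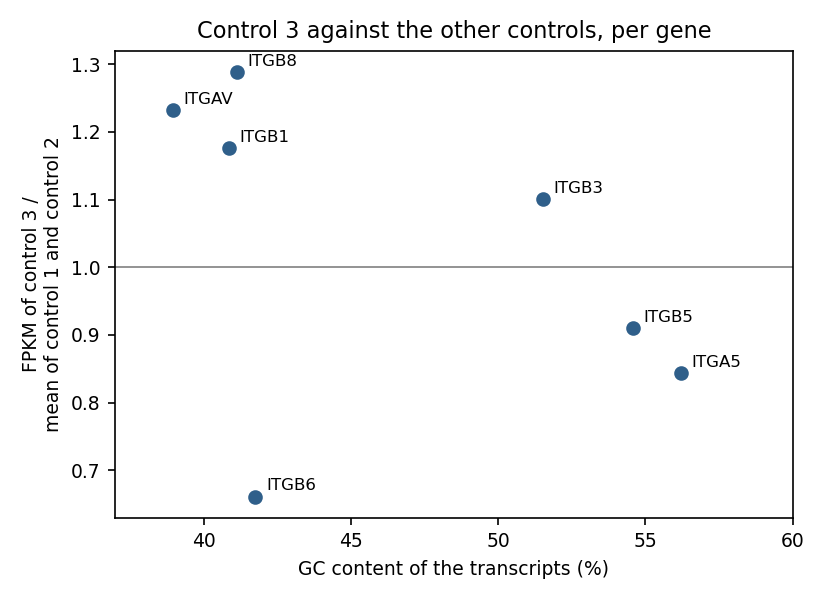
Ratio of the FPKM of control 3 to the mean of control 1 and control 2 (vertical axis) against the GC content of the gene's transcripts in percent (horizontal axis), 1 point per gene, with the line at equality. Control 3 was above the others for ITGAV, ITGB1, ITGB8 and ITGB3 and below them for ITGB5, ITGA5 and ITGB6.

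**Figure D3:**
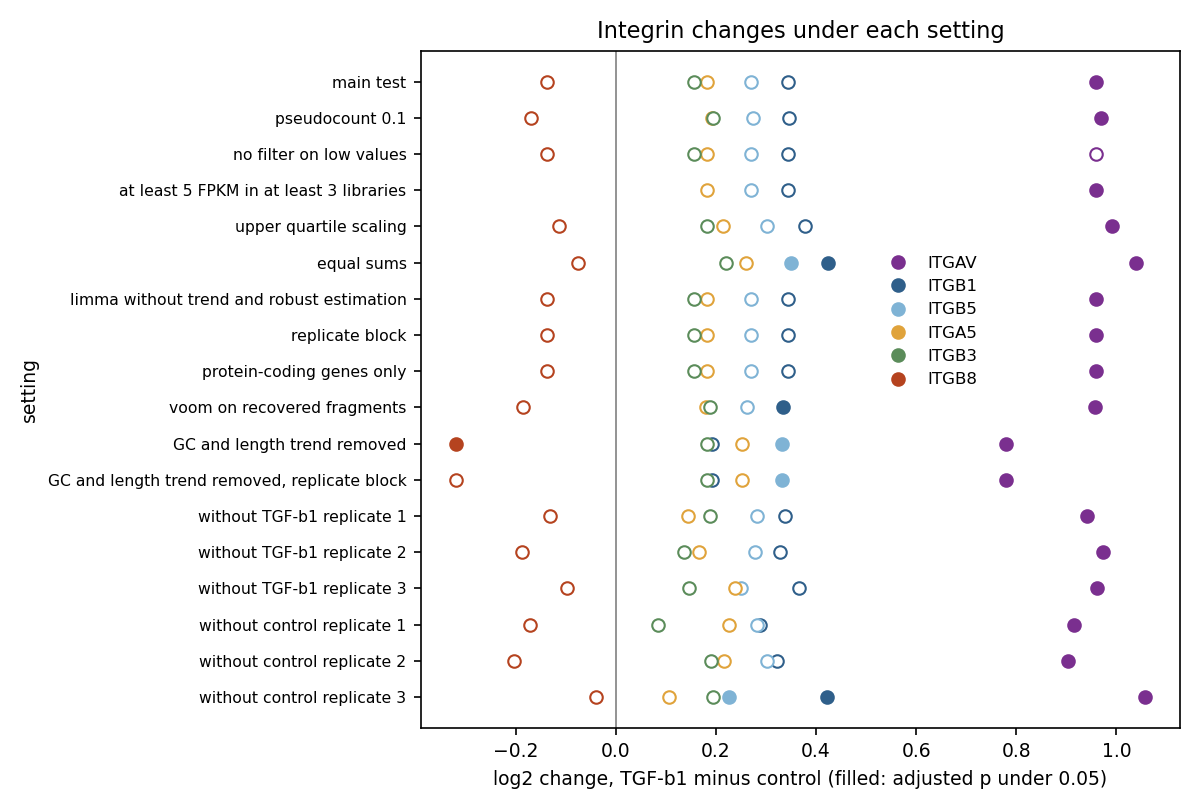
Log2 change, TGF-b1 minus control, of the 6 members tested, under the main test and each of 17 other settings (rows); filled points passed an adjusted p of 0.05. ITGAV lies between 0.78 and 1.06 in all of them and is open only with no filter, while ITGB1, ITGB5 and ITGB8 are filled in a few.

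Because alpha-v must pair with a beta chain, the composition of the pools was followed too. ITGAV made up 38.0, 37.2 and 39.0% of the summed FPKM of the 12 alpha chains that pair with beta1 in TGF-b1 1, 2 and 3, against 20.6, 20.7 and 25.8% in control 1, 2 and 3. ITGA3, a laminin receptor chain, made up 44.4, 44.3 and 42.9% in the TGF-b1 libraries and 61.4, 60.8 and 54.6% in the control libraries. The groups did not overlap for either chain (exact two-sided permutation p = 0.1, the smallest possible). Shares of the same sum are tied, so the lower share of ITGA3 is not a result separate from the higher share of ITGAV. These shares are of FPKM without a GC correction, and the transcripts of ITGAV and ITGA3 have 39.0 and 59.1% GC. The level of ITGA3 itself, 143 ± 6.24 FPKM in TGF-b1 and 168 ± 12.3 FPKM in control libraries (SD, n = 3 each), did not pass (adjusted p = 0.20). ITGA5 held 5.79 ± 0.262% and 5.82 ± 0.513% of the pool in TGF-b1 and control libraries, a difference whose sign depended on the library left out.

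In the beta pool the shares of the abundant chains overlapped between the groups, and control 3 alone made the overlap. ITGB1 made up 73.4 ± 0.845% of the 5 beta chains in TGF-b1 libraries and 72.0 ± 2.56% in control libraries, and ITGB5 23.6 ± 0.943% and 24.4 ± 2.67% (SD, n = 3 each; exact permutation p = 0.4 and 0.8). Control 1, 2 and 3 had 70.5, 70.7 and 74.999% ITGB1 and 26.1, 25.7 and 21.3% ITGB5. The TGF-b1 minus control difference for ITGB1, 1.39 percentage points, was 2.86 without control 3, 0.60 without control 1 and 0.70 without control 2, and that for ITGB5, -0.81, was -2.34 without control 3 and 0.049 without control 1. The share of ITGB8 was 1.27, 1.38 and 1.22% in TGF-b1 1, 2 and 3, against 1.81, 1.64 and 2.00% in control 1, 2 and 3, without overlap (exact permutation p = 0.1, or 0.5 adjusted over the 5 chains). ITGB3 and ITGB6 held 1.44 ± 0.0703% and 0.288 ± 0.0791% in TGF-b1 libraries, against 1.56 ± 0.114% and 0.218 ± 0.0726% in control libraries, with overlapping groups.

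Relative to ITGB1, ITGB3, ITGB5 and ITGB8, ITGAV was higher in every TGF-b1 library than in any control library, but relative to ITGB6 the groups overlapped. Its log2 ratio to ITGB1 was -0.70, -0.78 and -0.68 in TGF-b1 1, 2 and 3, against -1.32, -1.41 and -1.30 in control 1, 2 and 3, a difference of 0.62 that varied little within either group. The differences in the ratio to ITGB5, ITGB3 and ITGB8 were 0.70, 0.77 and 1.14, again with no overlap between groups. These ratios are of FPKM without a GC correction. With the GC and length trend removed, the log2 change was 0.78 for ITGAV. It was 0.19 for ITGB1, 0.33 for ITGB5, 0.18 for ITGB3 and -0.32 for ITGB8. The log2 ratio to ITGB6 was 6.98, 7.17 and 7.80 in TGF-b1 1, 2 and 3, against 7.09, 6.496 and 7.66 in control 1, 2 and 3. Each of the 5 ratios without overlap, the one to ITGA5 included, gave the smallest exact permutation p of 0.1, and 0.1 after adjustment over the 5. All 5 contain ITGAV, whose own groups did not overlap, so they are not independent and largely restate its change. ITGAV stood at 1.68 ± 0.0563 times the sum of the chains that pair chiefly with alpha-v (ITGB3, ITGB5, ITGB6 and ITGB8) in TGF-b1 libraries, and at 1.03 ± 0.168 times in control libraries. That sum was itself 73.9 ± 1.29 FPKM in TGF-b1 libraries and 62.3 ± 2.49 FPKM in control libraries (SD, n = 3 each). These are levels of RNA, not of assembled receptors.

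**Figure D4:**
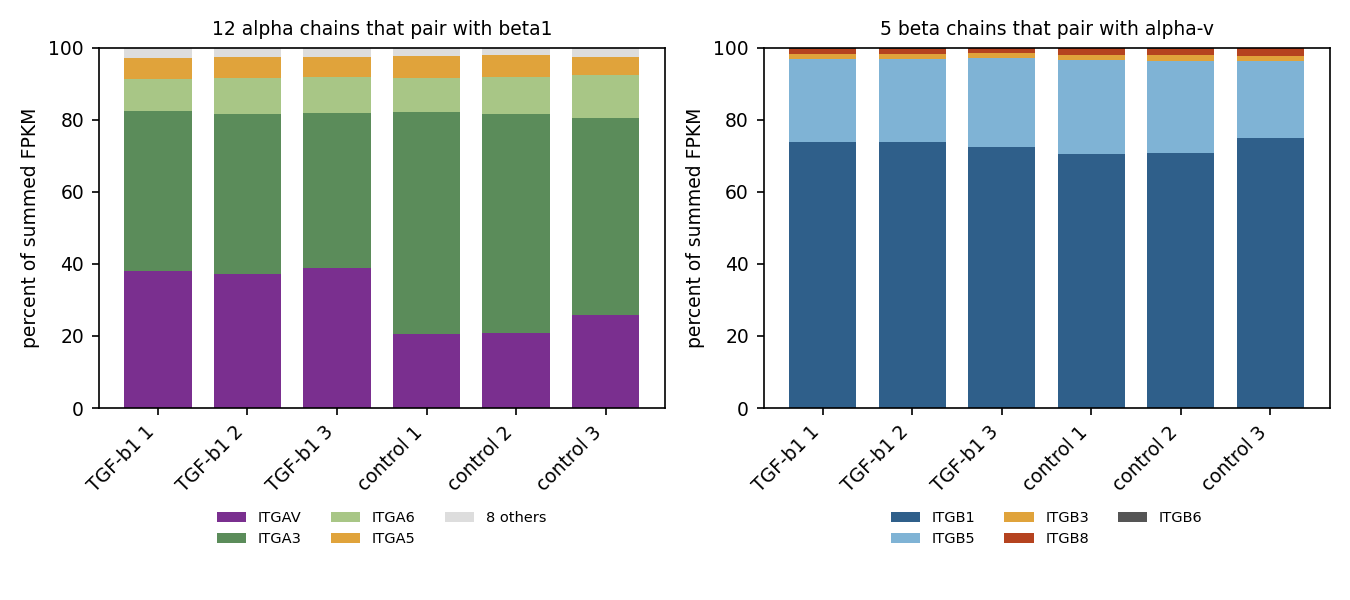
Share of each gene in the summed FPKM (percent, vertical axis) of 12 alpha chains that pair with beta1 (left) and of 5 beta chains that pair with alpha-v (right), 1 bar per library. ITGAV takes 37.2 to 39.0% of the alpha pool in TGF-b1 libraries and 20.6 to 25.8% in control libraries, and ITGB1 takes at least 70.5% of the beta pool in every library.

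The other integrin genes place the rise of ITGAV. Of 18 listed subunits outside this group 7 were tested, 1 was higher and 1 lower, with a median log2 change of 0.058, where 1.14% of all genes were higher and 1.29% lower at a median of 0.012. The same shares of all genes stand behind the counts of every list below, and without control 3 they are 12.8% higher and 16.8% lower. ITGA11, a collagen receptor chain, rose to 2.17 ± 0.409 FPKM in TGF-b1 libraries, against 0.69 ± 0.063 FPKM in control libraries, a log2 change of 0.90. The ratio of its group means was 3.15, larger than the 1.95 of ITGAV. Its log2 change was 1.51 with a pseudocount of 0.1 and 1.62 by voom, against 0.97 and 0.96 for ITGAV. ITGB4, of the laminin receptor alpha6 beta4, fell to 1.61 ± 0.181 FPKM, against 2.74 ± 0.303 FPKM in control libraries, a call that did not hold when control 1, control 2, TGF-b1 1 or TGF-b1 3 was left out (highest adjusted p 0.12) or when the GC and length trend was removed (log2 change -0.35, adjusted p = 0.069). Its transcripts have 62.9% GC. ITGA2, a collagen receptor chain, was at 4.71 ± 0.356 and 3.08 ± 0.57 FPKM in TGF-b1 and control libraries (adjusted p = 0.052). Without control 3 the counts were 2 higher and 3 lower, in the setting where 29.6% of all genes passed.

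**Figure D5:**
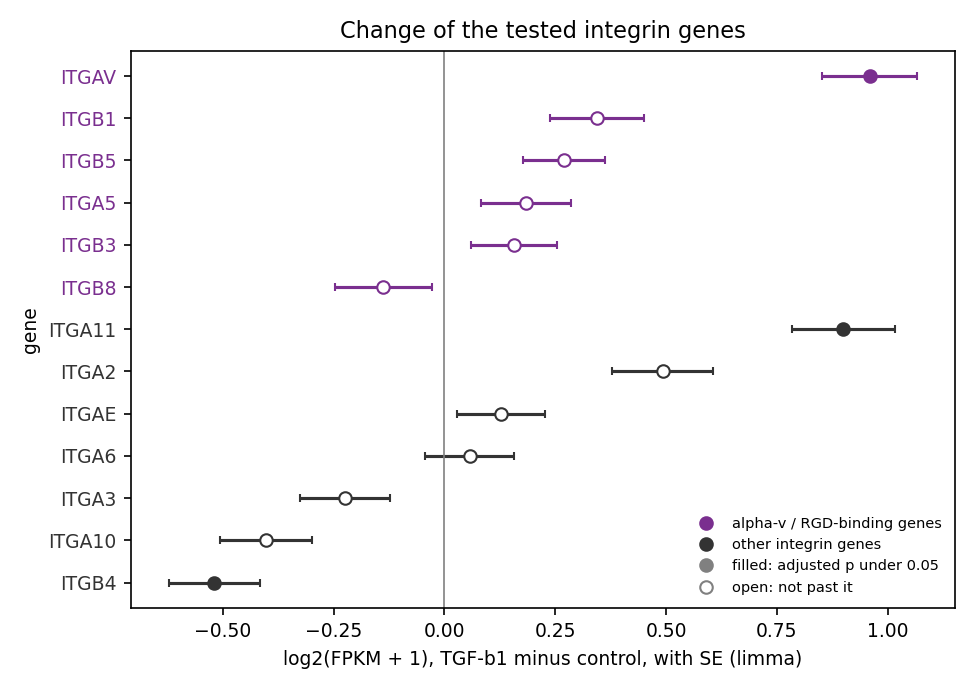
Log2(FPKM + 1) change, TGF-b1 minus control, with its standard error, for the 6 members (purple) and 7 other integrin genes (dark grey) that were tested; filled points passed an adjusted p of 0.05. ITGAV, at 0.96, and ITGA11, at 0.90, are the filled points on the right, and ITGB4, at -0.52, the one on the left. The scale understates the change of low genes such as ITGA11 and ITGB4.

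The matrix ligands of these receptors moved both ways. Of 18 listed proteins 11 were tested, 3 were higher and 1 lower, with a median of 0.14, against 4 and 2 without control 3, where 29.6% of all genes passed. FN1, fibronectin, the ligand of both alpha5 beta1 and the alpha-v receptors, had a log2 change of 1.53 and a ratio of group means of 2.91. TGFBI, a secreted matrix protein, was at 2.62 ± 0.361 FPKM in TGF-b1 libraries and 0.80 ± 0.14 FPKM in control libraries, a ratio of 3.28. Its log2 change was 1.01, or 1.60 with a pseudocount of 0.1 and 1.70 by voom. THBS1, thrombospondin-1, had a log2 change of 0.56, while TNC, tenascin-C, had -0.67. THBS1 did not pass when control 1 was left out (adjusted p = 0.062). VTN, vitronectin, was at 0.018 and 0.012 FPKM in TGF-b1 and control libraries. CTGF, a matricellular ligand bound without an RGD site, was at 85.3 ± 6.17 and 48.7 ± 4.09 FPKM in TGF-b1 and control libraries (SD, n = 3 each, adjusted p = 0.0029), and the related CYR61 at 238 ± 21.0 and 183 ± 4.92 FPKM (adjusted p = 0.084).

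Among 8 tested genes listed for TGF-β, the family of latent TGF-β binding proteins and activators of the latent complex, 1 was higher and 0 lower. Binding to latent TGF-β was not measured. It was LTBP2, a microfibril protein that belongs to the latent TGF-β binding proteins, at 23.4 ± 2.65 FPKM in TGF-b1 libraries and 11.1 ± 0.365 FPKM in control libraries (SD, n = 3 each, adjusted p = 0.00051). LTBP3, which binds the latent complex, was at 9.39 ± 0.559 FPKM in TGF-b1 libraries and 7.43 ± 0.989 FPKM in control libraries (adjusted p = 0.13), and TGFB2 at 1.11 ± 0.0831 and 0.72 ± 0.113 FPKM (adjusted p = 0.13).

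For proteins that act on the tails, few calls were made. Of 10 tested activators, inactivators and tail adaptors 0 passed in limma, although 5 had an unadjusted p under 0.05, as did 25.1% of all genes, and 4 were higher and 2 lower without control 3, where 29.6% of all genes passed. Among them, ITGB1BP1, an inactivator that binds the beta1 tail, was at 5.29 ± 0.599 and 7.08 ± 1.29 FPKM in TGF-b1 and control libraries, and FERMT2, kindlin-2, at 10.5 ± 0.236 and 8.19 ± 1.17 FPKM (adjusted p = 0.13 and 0.11). Of 15 tested focal adhesion genes 1 was higher and 0 lower, against 5 and 2 without control 3, where 29.6% of all genes passed. It was LIMS1, the adaptor PINCH1, at 12.2 ± 1.35 FPKM in TGF-b1 libraries and 7.60 ± 0.762 FPKM in control libraries (adjusted p = 0.012, and 0.061 without control 1). TNS3, a tensin, was at 2.96 ± 0.252 and 4.21 ± 0.152 FPKM (adjusted p = 0.054), and ILK, the integrin-linked pseudokinase, at 2.05 ± 0.444 and 2.67 ± 0.305 FPKM (adjusted p = 0.19).

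Among 13 integrin partner membrane proteins 0 passed in limma, with 3 at an unadjusted p under 0.05, and 0 were higher and 5 lower without control 3, where 16.8% of all genes were lower. SLC3A2, the heavy chain of an amino acid transporter that binds beta tails, was at 42.0 ± 3.54 and 58.3 ± 6.41 FPKM in TGF-b1 and control libraries (adjusted p = 0.056). The tetraspanins TSPAN4 and CD63 had log2 changes of -0.30 and -0.29 (adjusted p = 0.13 and 0.29). Of 12 genes of integrin traffic 0 passed, with 2 at an unadjusted p under 0.05, and 1 was higher and 1 lower without control 3. CLTC, the clathrin heavy chain, had a log2 change of 0.33, WASHC1, of the endosomal WASH complex, -0.32, and RAB21, a small GTPase that binds integrin alpha chains, 0.17 (adjusted p = 0.14, 0.084 and 0.25). After removal of the GC and length trend these were 0.15, -0.079 and -0.031, so that RAB21 turned its sign.

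The 5 genes whose log2(FPKM + 1) followed ITGAV most closely over the 6 libraries, among 6300 protein-coding genes with a mean of at least 5 FPKM, were SKIL, ANTXR1, THBS1, PALLD and BMPR2. Their Pearson correlations were 0.998, 0.996, 0.996, 0.995 and 0.994, which describe 2 groups of libraries and are not tested. SKIL, a SMAD co-repressor, was at 8.56, 8.60 and 8.59 FPKM in TGF-b1 1, 2 and 3, against 3.24, 2.95 and 4.25 FPKM in control 1, 2 and 3. In all 5 genes, as in ITGAV, control 3 was above the other controls. Their transcripts have 37.2 to 47.7% GC.

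Genes that overlap or adjoin the members could share fragments with them. AC092153.1, which overlaps ITGB6 on the same strand, had 7, 24 and 10 fragments in TGF-b1 1, 2 and 3, against 9, 6 and 3 in control 1, 2 and 3. ITGB1-DT, the divergent transcript next to ITGB1, was at 4.82 FPKM in TGF-b1 libraries, with 112 to 158 fragments each, and 5.10 FPKM in control libraries, with 132 to 148 (log2 change -0.070, adjusted p = 0.68). ITGB5-AS1, antisense to ITGB5, had 3, 2 and 2 fragments in TGF-b1 1, 2 and 3 and 0 in each control library, all at or under the 3 fragments that a count of 0 allows. The sources used here do not give the strand setting of the counting, and without it fragments of opposite strands cannot be told apart.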

How the data were processed

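Total RNA of 6 libraries of T24 cells was sequenced as 150 bp read pairs, per the labels. The submitters' processing notes name HISAT2 2.0.5, featureCounts 1.5.0-p3 and hg38. The sources used here give no annotation release, kit, strand setting or trimming. The deposited values are FPKM, made by the authors, in 1 table and in 6 single files with the same values; the mapping totals in the first rows were kept out of all fits. Exon lengths of GENCODE release 29 (GRCh38) turned the FPKM of 56923 uniquely named rows back into whole fragments (100% of the 111217 lower values checked, within 0.05), which gave the depths. Floors of 3 fragments cover counting error only.

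limma 3.58.1 in R 4.3.3 was run on log2(FPKM + 1) with trend and robust moderation and treatment as the only term, over 11363 genes that reached 1 FPKM in 3 or more libraries. p-values were adjusted by Benjamini-Hochberg over these genes, with a threshold of 0.05. A fold on this scale understates the change of low genes. The test was checked on simulated data with known changes. Noise in that simulation was drawn independently for each gene and library, so the check does not cover a shift shared by genes, as in control 3. Shares and ratios were compared by exact two-sided permutation tests over libraries (scipy 1.17.1). Within groups, libraries differed by more than sampling noise (chi-square 6.50 to 28.9 times its degrees of freedom), so none was a copy.

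Named are all members, list genes past the threshold or, failing 3 such, those with the largest changes, and the 5 genes most like ITGAV; NPNT, VTN and ITGA3 were picked after their values were seen. Some genes that the rule names are not reported here. The members and lists were chosen with earlier results of these data known. Alternatives were another pseudocount, filters, scalings, estimation, the replicate number as a block, each library left out, protein-coding genes only, voom and a GC and length correction; the correction with the block was added after the data were seen. Promoter windows are from RefSeq (GRCh38.p14) and coding sequences from GENCODE.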

Additional observations from a re-analysis of the deposited data

How the results depend on the processing

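The count of genes past the threshold, 277 of 11363, depended on the setting: 15 with no filter, 500 at a minimum of 5 FPKM, 767 with the replicate number as a block, 842 over protein-coding genes only, 1039 by voom, 500 after removal of the GC and length trend and 483 after that with the block. Leaving out 1 library gave 123 to 3307 (123 without control 1, 176 without control 2, 3307 without control 3, 367 without TGF-b1 1, 151 without TGF-b1 2 and 144 without TGF-b1 3). The count of members past it was 1, and 0 with no filter, 3 at equal sums, 2 by voom, 3 after removal of the GC and length trend, 2 after that with the block, and 1 to 3 when 1 library was left out. ITGAV was the member lost with no filter. The cause of these shifts was not tested. Same-numbered libraries did not deviate together in every pair (correlations of 0.25, -0.071 and 0.17), so the numbers were not treated as pairs; with the replicate block 1 member, ITGAV, passed (adjusted p = 0.0068). The share of ITGB5 in the beta pool, -0.81 percentage points, ranged from -2.34 to 0.049 when 1 library was left out, turning its sign without control 1. Leaving out 1 library, chosen after seeing the data, moved the share of ITGA5 in the alpha pool between -0.33 and 0.13 percentage points (-0.030 with all) and the log2 ratio of ITGAV to ITGB6 between -0.058 and 0.52 (0.23 with all). The other beta shares, the other ratios of ITGAV and the shares of ITGAV and ITGA3 in the alpha pool kept their sign when 1 library was left out. Low counts limit what can be said of ITGB6, at 39 to 101 fragments per library, and of ITGA8, at 0. The filter left ITGB6 out of the main test. With no filter ITGB6 was among 7 members tested, of which 0 passed.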
